A study of Mus musculus with 6 samples.

Results

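The respiratory chain and ATP synthase subunits are the nuclear-encoded proteins that build complexes I to V of the inner mitochondrial membrane, and their transcripts were followed here in tumor cells with and without a knockdown of HIF-1α. The members were chosen by gene symbol alone, as names that begin with Nduf followed by a, b, c, s or v, with Uqcr, with Cox followed by a digit from 4 to 8 or with Atp5, together with Sdha, Sdhb, Sdhc and Sdhd. Names of assembly factors and the paralogs Ndufa4l2 and Cox4i2 were left out. Of the 22880 genes in the deposited table, 83 were members, of which 37 belong to complex I, 4 to complex II, 8 to complex III, 17 to complex IV and 17 to complex V. The rule uses names and no measured value, and the label was taken as a list of names. Atp5s and Atp5sl match the names, although the latter has since been tied to assembly of complex I rather than to the ATP synthase.

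The libraries came from MC-38GFP cells, a mouse colon adenocarcinoma line with green fluorescent protein, that were grown as orthotopic tumors in the cecum wall of C57BL/6 J mice and sorted as living GFP-positive cells without CD45 or CD31. The 3 Mock and the 3 HIF-1α-KD libraries shared transduction with the pLKO.1-puro plasmid and differed in the knockdown, which was a mock in the former and aimed at HIF-1α in the latter. The knockdown was made in the injected cells and not in the host, in vivo passaging is given as no for all 6 libraries, and the age of the mice, the clonality of the lines and the number of tumors behind a library are not given in the sources used here. P-values therefore measure the spread between these libraries. Hif1a, the targeted gene, stood at normalized counts of 6914, 5424 and 4945 in Mock against 697, 3142 and 1928 in knockdown libraries, so the level of Hif1a differed among the latter.

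Complex I takes electrons from NADH and complex II from succinate, and both hand them through ubiquinone to complex III, from where cytochrome c carries them to complex IV and oxygen. Complexes I, III and IV pump protons, and complex V, the ATP synthase, uses the gradient to make ATP. In hypoxic cells HIF-1 is known to lower the use of this chain, in part by raising inhibitors of mitochondrial pyruvate use and by exchanging subunits for paralogs, which makes the subunits a natural group to follow after its knockdown.

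Between 19845852 and 30809139 reads per library fell on genes, and the members took between 1.15% and 1.29% of them while making up 0.363% of the genes. A filter for low counts kept 12014 genes and 79 members. Of the members that did not pass it, Cox8b and Cox8c had no read in any library, Cox6b2 had a normalized count of at most 1.61, and Cox7a1 had 11.1, 14.4 and 12.1 in Mock and 3.22, 2.40 and 11.6 in knockdown libraries. All of these encode isoforms that are best known from muscle, brown fat or testis. The normalized count is the number of reads divided by one factor per library. FPKM instead scales the reads by the total of the library and by transcript length, so that only FPKM is used to compare levels between genes, and small differences between groups can change sign from one scale to the other.

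Marker genes of other cell types were read in the same libraries. The summed FPKM of 7 fibroblast and pericyte markers was 759 to 2028 in Mock and 2560 to 4845 in knockdown libraries, and 4 of the 7 (Col1a1, Cspg4, Pdgfrb and Rgs5) were higher at an unadjusted limma p under 0.05. Col1a1, the collagen gene with a mean FPKM of 907 in Mock and 2966 in knockdown libraries, carried the rise of the sum, while Dcn, the second in level, had 618 and 485, and Lum and Pdgfra had log2 fold changes of -0.16 and 0.03. The sum of 11 leukocyte markers was 124 to 140 in Mock and 78.6 to 439 in knockdown libraries, with the highest value in HIF-1α-KD replicate 3. The sum of 9 epithelial markers was 1.48 to 15.6 in Mock and 1.71 to 3.34 in knockdown libraries, so markers that define colon epithelium were near 0 in most libraries, and that of 6 endothelial markers was 5.44 to 6.38 and 3.83 to 5.45. Cdh5, the highest of these 6, had a mean FPKM of 5.09 in Mock and 3.05 in knockdown libraries. The groups did not overlap for Cdh5, at -0.84 on the log2 scale (unadjusted p = 0.0130, adjusted p = 0.294 by limma). The other tested endothelial markers, Pecam1 and Tek, were at 0.26 and 1.26. The part of these cell types in the results for the subunits was not tested. In bulk libraries a change in the mixture of cells and a change of RNA per cell cannot be told apart.

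To see whether HIF-1α knockdown altered the chain as a whole, every member was compared between groups with limma. Most subunit transcripts differed little: 1 member, Ndufv3, fell at an adjusted p under 0.05 and none rose, while 0.383% of all tested genes were called lower and 0.00832% higher. With edgeR or DESeq2 on recovered reads, 1 member was likewise lower and 0 higher, whereas limma called 0 lower with scaling by total reads, correction for transcript length, the replicate number as a block or any one library left out. Over all tested genes, limma called 36, 43 and 0 in either direction under the first 3 of these settings. It called 0 to 38 without single libraries, beside 47 with all libraries and the deposited scaling. At an unadjusted p under 0.05, 3 members were lower (Ndufv3, Cox7a2l and Uqcrfs1) and 1 was higher (Cox6a2), that is 3.80% and 1.27% of the 79, whereas 5.69% of all tested genes were lower and 7.04% higher. With scaling by total reads, 2 members were lower and 2 higher. The groups did not overlap for 5 lower and 2 higher members, beside 8.75% and 10.4% of all tested genes, and an exact permutation test of 3 against 3 libraries cannot go below a p of 0.1. Besides the genes already named, these were Ndufs3, Cox7c and Atp5sl, the first 2 of which were named after their values had been seen and each have 1 near-identical annotated pseudogene. Ndufa6, also named after its values had been seen, was at -0.40 with overlap of the groups (unadjusted p = 0.0547 by limma). It passed the unadjusted threshold with edgeR, scaling by TMM, no filter on low counts, the replicate block or correction for GC content. The same held without Mock replicate 2 or HIF-1α-KD replicate 1.

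The members varied little around a small shift. Their log2 fold changes (HIF-1α-KD over Mock) were negative for 57 and positive for 22, beside 5682 negative and 6332 positive among all tested genes, with a median of -0.09 beside 0.02. The split of the members was 46 negative and 33 positive with scaling by total reads, 38 and 41 after correction for transcript length, and between 64 and 44 negative without single libraries. With the deposited scaling 70 of 79 lay within 0.3 of 0 on the log2 scale. The 95% interval of the fold change stayed within 2-fold in either direction for 76 of 79 members, compared with 8540 of 12014 genes, and within 1.5-fold for 57. The intervals of Ndufv3, Cox6a2 and Cox7b2 reached past 2-fold. The median was -0.08 for complex I, -0.04 for complex II, -0.09 for complex III, -0.10 for complex IV and -0.10 for complex V, of which that of complex II turned to 0.02 with scaling by total reads. Without single libraries the median ranged from -0.16 to -0.02 in complex I, -0.13 to 0.03 in complex II, -0.17 to -0.05 in complex III, -0.16 to 0.01 in complex IV and -0.16 to -0.02 in complex V. It was positive for complex II without Mock replicate 1 or HIF-1α-KD replicate 3 and for complex IV without Mock replicate 3, and that of complex V was closest to 0 without Mock replicate 1. These medians were smaller than the gaps between libraries of one group, and after correction of each library for transcript length the median over members was 0.01, the same as the 0.01 of all genes, with positive medians for complexes I to IV. The members are short, with a median length of 718 bases against 1920 for all tested genes, and across all tested genes the log2 fold change had a Spearman correlation of 0.19 with length, whereas among the 79 members it was -0.01.

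**Figure D1:**
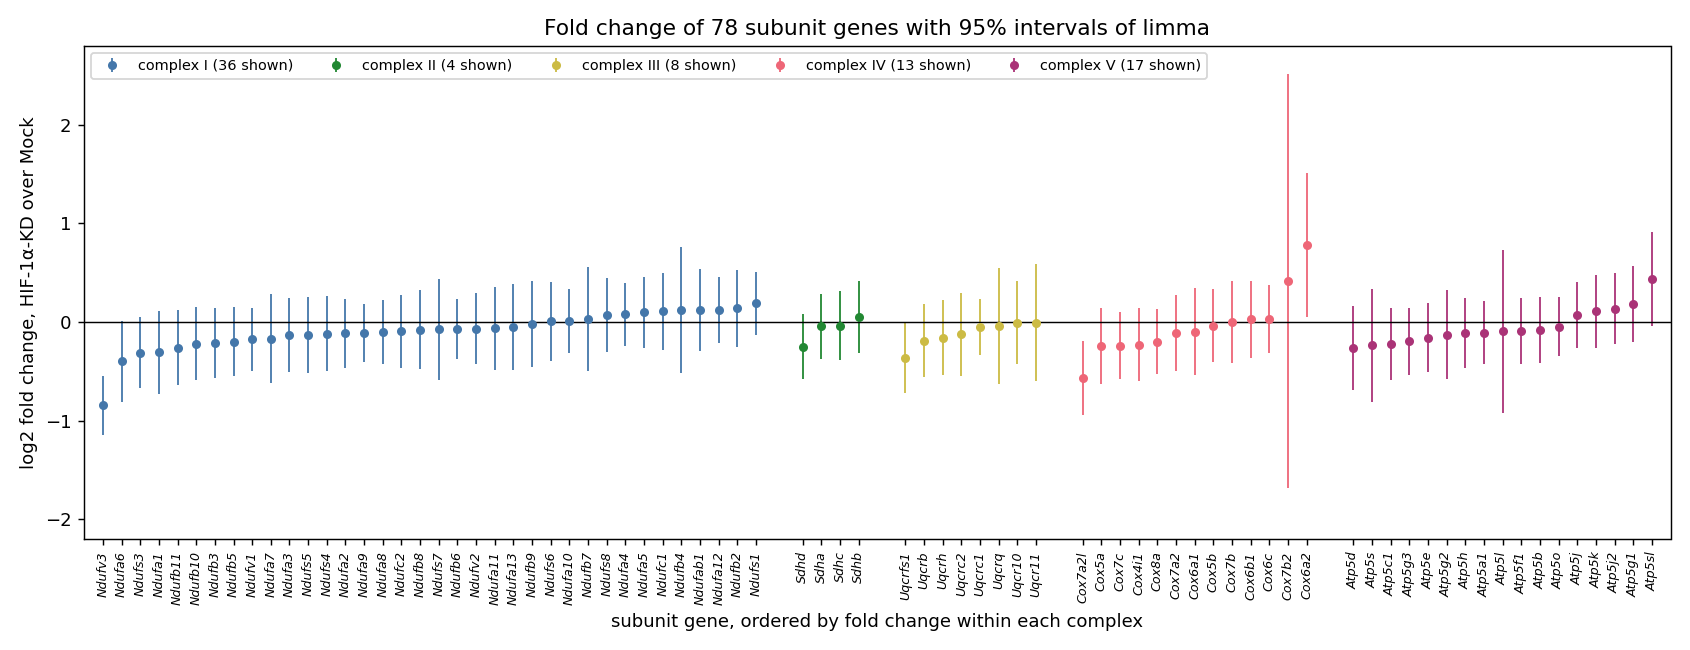
Log2 fold change (vertical axis, HIF-1α-KD over Mock) of 78 of the 79 tested subunit genes (horizontal axis), grouped by complex and ordered by size, with bars for the 95% interval of limma. Ndufv3, Cox7a2l and Uqcrfs1 have intervals below 0, Cox6a2 has one above 0, and the bars of the other 74 genes shown cross 0.

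The median of the subunit genes differed more between libraries of one group than between the groups. The median deviation of the 79 members from their own means over the 6 libraries was 0.11, -0.11 and 0.12 in Mock replicates 1, 2 and 3 and 0.07, -0.06 and -0.15 in the HIF-1α-KD replicates, on the log2 scale. For all tested genes the same medians stayed between -0.01 and 0.02. Mock replicate 2 was the highest of its group for 0 members and the lowest for 55, HIF-1α-KD replicate 1 was the highest for 54, and HIF-1α-KD replicate 3 was the lowest for 57. The median over members was -0.14 without Mock replicate 2, -0.15 without HIF-1α-KD replicate 1, -0.04 without HIF-1α-KD replicate 3 and -0.05 without Mock replicate 3, so each of these libraries moved it by more than 1.5 times. Base composition was compared for replicate 1 of each group only, so the values do not show whether the other replicates differ as much. The difference of Mock replicate 1 from the other 2 Mock libraries had a Spearman correlation of -0.68 with GC content over the 79 members and of -0.55 over all tested genes. The difference of HIF-1α-KD replicate 1 from the other 2 of its group had one of 0.45 over the members, and the log2 fold change between groups one of 0.01. The points of these correlations are genes that share the same 6 libraries.

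**Figure D2:**
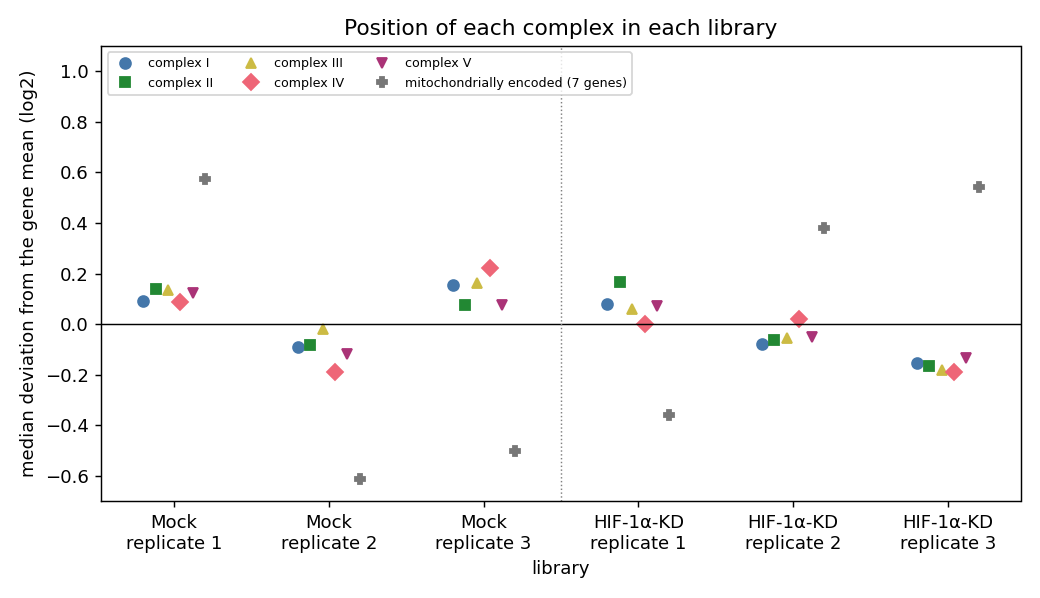
Median deviation of each complex from its genes' means over 6 libraries (vertical axis, log2) in each library (horizontal axis), with 1 symbol per complex and one for 7 mitochondrially encoded subunits. Complexes I to V sit between -0.19 and 0.22 and lie on the same side of 0 within a library, except in HIF-1α-KD replicate 2, where complex IV is at 0.02 and the others are below 0, whereas the mitochondrially encoded genes range from -0.61 to 0.57.

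Promoters are shown for the 3 members that were lower at an unadjusted p under 0.05, and for Sdhb as a member with a log2 fold change close to 0, because the hypoxia response element bound by HIF and the motifs known for respiratory genes can be read in them. Each window runs from 250 bases before to 50 bases after the RefSeq gene start in GRCm38.p6 and is printed 5′ to 3′ on the strand of the gene, and capitals mark every match to GCATGCGC (NRF1), CCGGAAG (ETS factors such as GABPA), AAGATGGC (YY1) or the hypoxia response element cores ACGTG and GCGTG on either strand, so that CACGC is GCGTG read on the other strand. Ndufv3 is at chr17:31519865-31520164 (+), Cox7a2l at chr17:83514284-83514583 (-), Uqcrfs1 at chr13:30545267-30545566 (-) and Sdhb at chr4:140961021-140961320 (+). The Cox7a2l window lies within the span of the gene in GENCODE, whose most upstream start is farther 5′.
Ndufv3: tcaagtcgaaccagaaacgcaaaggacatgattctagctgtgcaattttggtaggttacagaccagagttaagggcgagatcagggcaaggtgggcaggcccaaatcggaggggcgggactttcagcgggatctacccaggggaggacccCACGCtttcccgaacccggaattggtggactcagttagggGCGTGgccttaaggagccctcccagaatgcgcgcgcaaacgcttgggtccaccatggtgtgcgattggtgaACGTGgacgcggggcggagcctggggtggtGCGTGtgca
Cox7a2l: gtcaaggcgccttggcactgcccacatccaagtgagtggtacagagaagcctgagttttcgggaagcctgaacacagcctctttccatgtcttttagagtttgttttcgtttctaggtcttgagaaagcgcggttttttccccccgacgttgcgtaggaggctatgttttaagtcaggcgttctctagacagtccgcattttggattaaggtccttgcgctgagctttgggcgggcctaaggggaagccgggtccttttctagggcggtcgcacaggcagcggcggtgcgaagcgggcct
Uqcrfs1: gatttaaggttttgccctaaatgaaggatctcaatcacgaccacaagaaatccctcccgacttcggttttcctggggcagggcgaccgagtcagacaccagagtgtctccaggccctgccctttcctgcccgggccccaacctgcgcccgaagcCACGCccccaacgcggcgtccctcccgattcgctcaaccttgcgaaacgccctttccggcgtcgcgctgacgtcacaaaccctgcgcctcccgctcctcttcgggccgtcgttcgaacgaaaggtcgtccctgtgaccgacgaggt
Sdhb: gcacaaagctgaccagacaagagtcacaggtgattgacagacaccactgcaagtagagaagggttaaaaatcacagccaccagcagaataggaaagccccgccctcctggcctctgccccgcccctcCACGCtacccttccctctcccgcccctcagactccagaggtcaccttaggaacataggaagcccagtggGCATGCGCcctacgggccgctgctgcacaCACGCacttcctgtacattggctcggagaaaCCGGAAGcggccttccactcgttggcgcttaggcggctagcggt

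The Ndufv3 window held ACGTG once and GCGTG on both strands, the Uqcrfs1 window held GCGTG once on the opposite strand, and the Cox7a2l window held none of the 5 motifs. In Sdhb, GCATGCGC and CCGGAAG stood beside GCGTG cores. RefSeq windows were matched for 70 of 83 members, and none was found for Cox6a2. GCATGCGC was found in 14.3% of the members' windows against 2.8% of all 27025 windows and 3.61% of the 17492 windows of protein-coding genes, CCGGAAG in 21.4% against 9.12% and 11.9%, and AAGATGGC in 14.3% against 2.88% and 3.22%. For the hypoxia response element cores the shares were 27.1% against 19.7% and 20.7% for ACGTG, and 51.4% against 32.5% and 38.4% for GCGTG. The 43 tested members with either core had a median log2 fold change of -0.10 and the 24 without had one of -0.08, with ranges of -0.85 to 0.43 and -0.57 to 0.14. These are matches of letters in one window and say nothing of binding.

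Ndufv3 encodes a small accessory subunit of the NADH-binding module of complex I (ENSMUSG00000024038, GRCm38 chr17:31520115-31531331, plus strand). Its normalized counts were 1968, 1863 and 1993 in Mock and 1109, 1098 and 1033 in knockdown libraries. Every Mock library lay above every HIF-1α-KD library, and the spread within either group was small beside the gap. Ndufv3 fell by 0.85 on the log2 scale (SE 0.13, 95% interval -1.14 to -0.55, adjusted p = 0.0398 by limma), which is a change of -44.3%, and its FPKM was 102 ± 0.86 in Mock and 58.8 ± 1.7 in knockdown libraries (SD, n = 3). Its log2 fold change was -0.91 to -0.75 under the other settings and -0.87 to -0.81 without single libraries, whereas the limma call was lost with scaling by total reads (adjusted p = 0.0584), after correction for transcript length (adjusted p = 0.0786), with the replicate number as a block (adjusted p = 0.171) and without any one of the 6 libraries (adjusted p of 0.0798 to 0.172).

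Of the 7 core subunits of the peripheral arm of complex I, which hold the flavin and the iron-sulfur clusters that carry electrons, 0 passed an unadjusted p under 0.05 by limma and 0 an adjusted one. With correction for GC content, Ndufs3 passed the unadjusted threshold. With 5.69% of all tested genes lower and 7.04% higher at the unadjusted level, a count of 0 among 7 does not set them apart, and their difference from Ndufv3 was not tested. Ndufv1, the NADH-oxidizing subunit to which Ndufv3 is joined, had 6935, 7516 and 7736 in Mock and 7525, 6268 and 5928 in knockdown libraries, with a log2 fold change of -0.18 (SE 0.14). Ndufs1, the largest core subunit, had 3069, 2588 and 2808 against 3592, 2931 and 3129, with the highest log2 fold change of complex I, 0.19 (SE 0.14). The groups overlapped for both. Ndufs7, next to the ubiquinone site, was at -0.07 and Ndufs8 at 0.07, with 95% intervals that crossed 0, and the sign of both turned with correction for length or for GC content. Ndufs3 had 1520, 1135 and 1221 against 1050, 1042 and 1003, and its log2 fold change was -0.31 (SE 0.16) without overlap of the groups and with an adjusted p of 0.454 by limma. By FPKM, Ndufv1 was the highest member of complex I at 326 ± 25 and Ndufa4 followed at 325 ± 19, a difference within their spread, while Ndufb4 was lowest at 5.93 ± 1.3 (mean ± SD of 3 Mock libraries).

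Complex II, the succinate dehydrogenase shared with the citric acid cycle, had the median smallest in size of the 5 complexes with the deposited scaling and all libraries. This rank was not kept throughout. After correction for transcript length the median was 0.02 for complex II and 0.003 for complex III. Without Mock replicate 3 it was -0.08 for complex II and -0.05 for complex I. Sdha, the flavoprotein, had normalized read counts of 5281, 5130 and 4346 in Mock and 5349, 4531 and 4439 in knockdown libraries, a log2 fold change of -0.04. Sdhb, the iron-sulfur subunit, was at 0.05 and Sdhc, a membrane anchor, at -0.04, and the signs of these 3 turned under other scalings or corrections. Sdhd, the other anchor, had 4980, 3943 and 4344 against 3599, 4084 and 3433, with the lowest value of the complex at -0.25 (SE 0.15, adjusted p = 0.514 by limma). The 95% intervals of all 4 stayed within 1.5-fold.

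In complex III the 8 members chosen by name all had a negative log2 fold change, from -0.37 to -0.01. However, 4 of the 8, Uqcrc1 and Uqcr11 among them, were positive with scaling by total reads or with correction for transcript length. Without single libraries 0 to 4 were positive. The names miss Cyc1, the cytochrome c1 of the same complex, at 0.13 (SE 0.15), and the mitochondrially encoded mt-Cytb, at 0.63 (SE 0.25). One of the 8, Uqcrfs1, had an unadjusted limma p under 0.05. It encodes the Rieske iron-sulfur protein, which passes electrons on toward cytochrome c (ENSMUSG00000038462, GRCm38 chr13:30540308-30545362, minus strand). Its normalized counts were 3596, 2570 and 3097 in Mock and 2442, 2351 and 2324 in knockdown libraries. The lowest Mock value stood just above the highest HIF-1α-KD value, and the Mock libraries varied far more than the others. The log2 fold change was -0.37 (SE 0.15, 95% interval -0.72 to -0.01, adjusted p = 0.384 by limma). The unadjusted threshold was no longer passed with scaling by total reads, after correction for transcript length, with the replicate block, or without any single library other than Mock replicate 2, and the log2 fold change then lay between -0.39 and -0.25. Uqcrc1, a core protein, was at -0.05 and Uqcr11, a small subunit, at -0.01, signs that turned under those settings. Uqcrh, the hinge protein, had the highest FPKM of the complex, 331 ± 53 in Mock and 306 ± 25 in knockdown libraries.

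Complex IV held the members farthest apart. Cox7a2l encodes a protein described as joining complexes III and IV into supercomplexes and is counted with complex IV by name (ENSMUSG00000024248, GRCm38 chr17:83501918-83517330, minus strand). Whether it does so in these cells was not tested. Its normalized counts were 6144, 4436 and 5436 in Mock and 4086, 3332 and 3336 in knockdown libraries, without overlap. The log2 fold change was -0.57 (SE 0.16, 95% interval -0.94 to -0.19), a change of -32.6%, with an adjusted p of 0.261 by limma. Leaving out any one library gave log2 fold changes of -0.70 to -0.46, each past the unadjusted threshold. The 2 proteins that frame the core, Cox4i1 and Cox5a, had log2 fold changes of -0.23 (SE 0.16) and -0.24 (SE 0.17), and the groups overlapped for both. Without single libraries these ranged from -0.36 to -0.15 and from -0.41 to -0.13. Cox5a passed the unadjusted threshold without Mock replicate 2.

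Cox6a2, the heart and skeletal muscle form of subunit 6a, went the other way (ENSMUSG00000030785, GRCm38 chr7:128205435-128206387, minus strand). It had normalized read counts of 187, 93.8 and 159 in Mock and 194, 223 and 329 in knockdown libraries. The groups did not overlap, yet the highest Mock and the lowest HIF-1α-KD library nearly met. Its log2 fold change was 0.78 (SE 0.32, 95% interval 0.05 to 1.51), with an adjusted p of 0.381 by limma. The unadjusted threshold was no longer passed without Mock replicate 2, where the log2 fold change was 0.49, without Mock replicate 3 at 0.87, without HIF-1α-KD replicate 2 at 0.84, without HIF-1α-KD replicate 3 at 0.56, or with correction for GC content at 0.72. The general form Cox6a1 was at -0.10, a sign that turned with correction for length, and the FPKM of Cox6a2 was 2.41% to 5.43% of that of Cox6a1 in Mock and 5.02% to 9.0% in knockdown libraries. Among the other tissue-restricted forms, Cox7a1 stood at 0.711% to 1.23% of Cox7a2 in Mock and 0.163% to 0.911% in knockdown libraries by FPKM. Cox6b1 and Cox8a, the general forms of Cox6b2, Cox8b and Cox8c, were at 0.03 and -0.20, and the sign of Cox6b1 turned with correction for GC content.

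**Figure D3:**
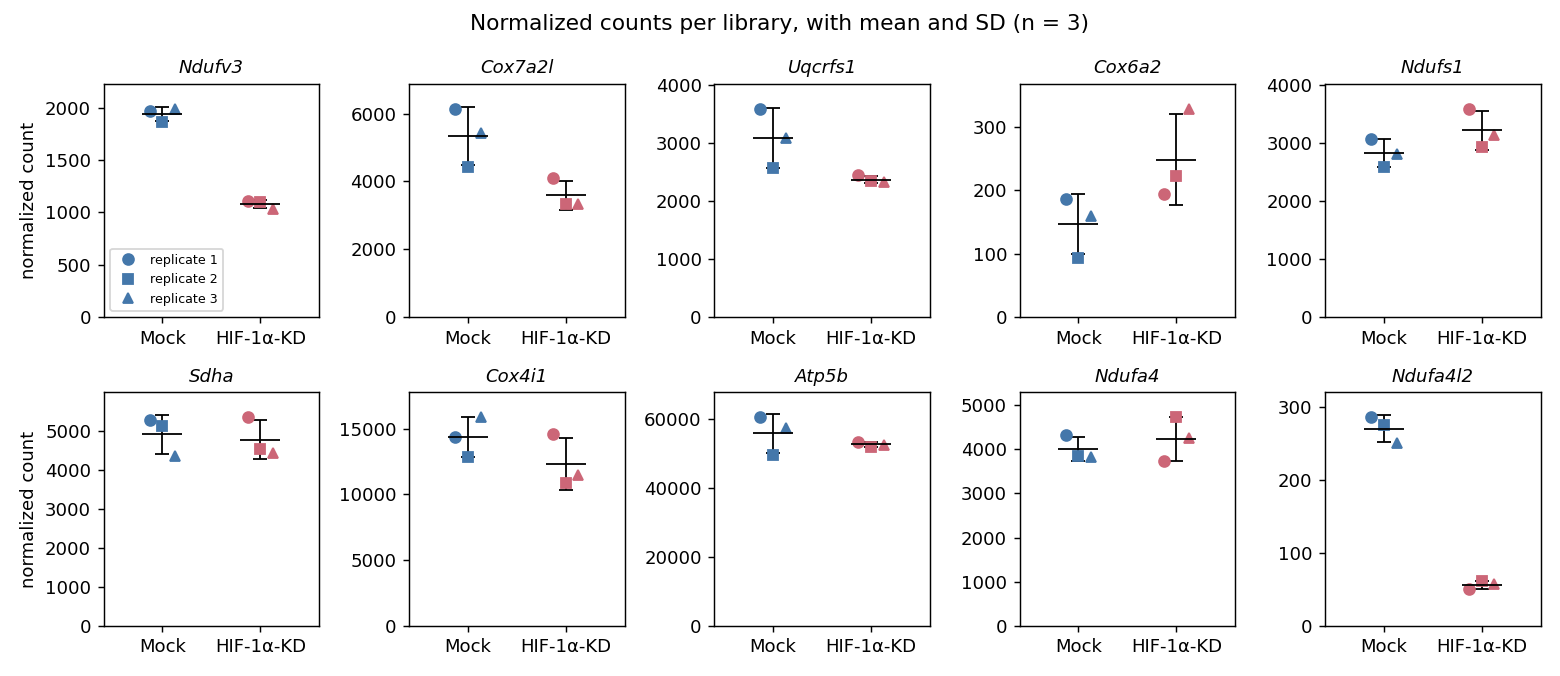
Normalized count (vertical axis, from 0) of 10 genes in Mock and HIF-1α-KD libraries (horizontal axis), with 1 symbol per replicate number and black marks for the mean and SD of 3 libraries. Ndufv3 and the paralog Ndufa4l2 are separated by wide gaps, Cox7a2l, Uqcrfs1 and Cox6a2 by narrow ones, and the groups overlap for Ndufs1, Sdha, Cox4i1, Atp5b and Ndufa4.

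None of the 17 complex V members reached an unadjusted p under 0.05 by limma, and none an adjusted one. Of all tested genes 5.69% were lower and 7.04% higher at the unadjusted level, so a count of 0 among 17 does not set them apart. Under alternatives, Atp5sl passed the unadjusted threshold with scaling by total reads and with correction for length, and Atp5d passed it with correction for GC content and without Mock replicate 1. Atp5b, the catalytic beta subunit, had normalized read counts of 60580, 49760 and 57370 in Mock and 53500, 52040 and 52620 in knockdown libraries, a log2 fold change of -0.08 (SE 0.15). Atp5a1, the alpha subunit, had 28170, 26740 and 25750 against 27680, 23780 and 23460, at -0.11 (SE 0.14). The groups overlapped for both, and the 5 genes of the F1 head and central stalk were all between -0.27 and -0.08, the lowest being Atp5d, which was at -0.45 without Mock replicate 1 and -0.09 without Mock replicate 3. The c ring through which protons pass is built from one protein encoded by 3 genes, of which Atp5g1 was at 0.18, Atp5g2 at -0.13 and Atp5g3 at -0.20, none past the test. Without single libraries these ranged from 0.05 to 0.33, -0.28 to 0.02 and -0.30 to -0.08. By FPKM, Atp5g3 was highest in each library, with Atp5g1 at 12.5% to 25.0% and Atp5g2 at 25.6% to 48.8% of it. These shares depend on the deposited lengths, 2670 bases for Atp5g1, 640 for Atp5g2 and 772 for Atp5g3. A coding transcript of 691 bases is also listed for Atp5g1, and a shorter length would raise its share. Atp5g1 and Atp5g2 have 1 and 2 near-identical annotated pseudogenes, so their levels are uncertain. Atp5sl, the complex I assembly protein, had 169, 168 and 202 in Mock and 279, 229 and 222 in knockdown libraries without overlap, a log2 fold change of 0.43 (SE 0.21, adjusted p = 0.435 by limma).

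The complexes kept the same order of median level in both groups. Median FPKM in Mock libraries was 76.6 for complex I, 123 for complex II, 137 for complex III, 221 for complex IV and 190 for complex V, against 13.4 for all tested genes, and in knockdown libraries it was 72.6, 115, 131, 193 and 177. Atp5b was the highest of all members at 2545 ± 167 in Mock and 2501 ± 33.5 in knockdown libraries, followed by Cox4i1 at 948 ± 73.7 and 844 ± 117. Cox7b2, a testis form, at 1.14 ± 1.2, Atp5l at 5.04 ± 1.9, Atp5s at 5.10 ± 1.2 and Ndufb4 at 5.93 ± 1.3 were the lowest tested members in Mock, and the last 3 did not differ beyond their spread. Atp5l has 9 near-identical annotated genes, 8 of them pseudogenes, and 14 members have at least 1, so their levels are uncertain. For 24 members the longest coding transcript is over 1.5 times the deposited length, and on that length Ndufa4 would lead complex I and Sdhd complex II.

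**Figure D4:**
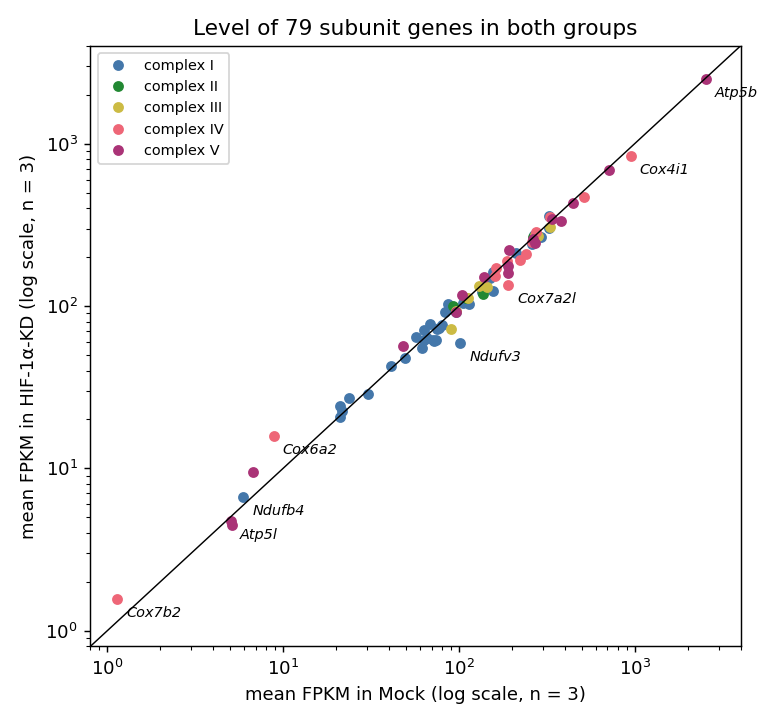
Mean FPKM of the 79 tested subunit genes in HIF-1α-KD (vertical axis) against Mock libraries (horizontal axis), n = 3 each and both on log scales, with 1 color per complex and the line of equal level. Genes from Cox7b2 at 1.14 to Atp5b at 2545 lie close to the line, with Ndufv3 and Cox7a2l below and Cox6a2 above it.

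Ndufa4l2 and Cox4i2 are the paralogs that the names left out. Ndufa4l2, known as a HIF-1 target that dampens complex I activity (ENSMUSG00000040280, GRCm38 chr10:127514967-127517154, plus strand), had normalized read counts of 286, 275 and 250 in Mock and 49.9, 61.2 and 56.6 in knockdown libraries. The groups lay far apart, and Ndufa4l2 fell by 2.26 on the log2 scale (SE 0.23, adjusted p = 0.0205 by limma). The adjusted p of limma was 0.0658, 0.0732 and 0.0907 without Mock replicate 1, 2 or 3, 0.0591 without HIF-1α-KD replicate 2 and 0.0649 with the replicate number as a block. The log2 fold change of Ndufa4l2 was -2.32 to -2.18 without single libraries. Ndufa4 itself, first assigned to complex I and now counted with complex IV, had 4321, 3860 and 3838 against 3728, 4727 and 4254, a log2 fold change of 0.08 that stayed positive under each scaling. By FPKM, Ndufa4l2 was 3.34% to 3.65% of Ndufa4 in Mock and 0.663% to 0.685% in knockdown libraries, a narrow range within each group. Cox4i2, a lung and hypoxia form of subunit 4, had a normalized count of at most 1.16 in every library. Of the 5 tested genes in a list of HIF-linked respiratory genes, 4 fell at an adjusted limma p under 0.05, Ndufa4l2 among them: Bnip3, a mitophagy receptor, by 2.70, Pdk1, which restrains pyruvate dehydrogenase, by 1.57 and Higd1a, a complex IV binding protein, by 1.34 on the log2 scale. Lonp1, the matrix protease, was at 0.11. With the replicate block, without Mock replicate 3 and without HIF-1α-KD replicate 2, limma called 0 of all tested genes at an adjusted p under 0.05, so all 4 calls were lost there, beside 1324, 1444 and 1069 genes at an unadjusted p under 0.05. These genes had been seen to differ in earlier results of these data, so their count is no independent support.

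The 13 subunits encoded by mitochondrial DNA are core parts of complexes I, III, IV and V, and 7 of them were tested. mt-Cytb, the cytochrome b of complex III, had normalized read counts of 179600, 99460 and 141500 in Mock and 171800, 226800 and 241800 in knockdown libraries. The groups overlapped through replicate 1 of each, and the log2 fold change was 0.63 (SE 0.25, 95% interval 0.06 to 1.21, adjusted p = 0.371 by limma). It was the 1 gene of the 7 past the unadjusted threshold, which it no longer passed without a filter on low counts or without Mock replicate 2 (log2 fold change 0.41), Mock replicate 3 (0.66), HIF-1α-KD replicate 2 (0.58) or HIF-1α-KD replicate 3 (0.54). With all libraries the other 6 were between -0.10 and 0.62. Without Mock replicate 1, 4 of the 7 passed the unadjusted threshold, mt-Cytb at 0.83, mt-Nd1 at 0.97, mt-Nd2 at 0.69 and mt-Nd4 at 0.84. mt-Cytb, mt-Nd1 and mt-Nd4 also passed it without HIF-1α-KD replicate 1 and with correction for GC content, whereas 0 of the 7 did without any one of the other 4 libraries. With all libraries, 7.04% of all tested genes were higher and 5.69% lower at that threshold. In either direction 1025 of 12164 genes passed it without Mock replicate 1 and 1442 of 12176 without HIF-1α-KD replicate 1. With correction for GC content 1719 of 12014 did. The median deviation of the 7 genes was 0.57, -0.61 and -0.50 in Mock and -0.36, 0.38 and 0.54 in knockdown libraries on the log2 scale, and their median SD within a group was 0.58 against 0.19 for the 79 nuclear subunits. The remaining 6 genes, mt-Co2, mt-Co3, mt-Atp6, mt-Atp8, mt-Nd3 and mt-Nd4l, were listed at no more than 2.46 in any library beside 21970 or more for mt-Nd1, and no level was read from them.

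Genes that build or regulate the chain were compared in the same way, beside the 7.04% higher and 5.69% lower of all tested genes at an unadjusted p under 0.05. Of 46 tested assembly factors, 0 passed an unadjusted p under 0.05 by limma, and the smallest p-values belonged to Ecsit at -0.33 and Timmdc1 at 0.29. Cyc1 and Cycs, the cytochromes c1 and c, the ATPase inhibitor Atpif1, and Usmg5 and 2010107E04Rik, small ATP synthase proteins, lay between -0.04 and 0.13, and 0 of 5 passed. Of 11 genes of ubiquinone synthesis, 1 was higher at an unadjusted p under 0.05: the methyltransferase gene Coq5 had 457, 542 and 490 in Mock and 636, 674 and 687 in knockdown libraries, without overlap, with a log2 fold change of 0.43 (SE 0.16, adjusted p = 0.339 by limma). Coq5 no longer passed the unadjusted threshold with the replicate block or without Mock replicate 1, Mock replicate 3, HIF-1α-KD replicate 2 or HIF-1α-KD replicate 3, with log2 fold changes of 0.37 to 0.43. Of 15 tested regulators of mitochondrial biogenesis, 2 (13.3%) were higher at that level. Pprc1, a coactivator of the PGC-1 family, had 878, 1532 and 1604 in Mock and 2489, 2101 and 2418 in knockdown libraries, with a log2 fold change of 0.85 (SE 0.23, adjusted p = 0.245 by limma). Polg, the mitochondrial DNA polymerase, was at 0.41 (SE 0.18, adjusted p = 0.390 by limma). It stood at the edge of the unadjusted threshold, which it no longer passed with edgeR, DESeq2, scaling by TMM or by the median of ratios, the replicate block, correction for length or GC content, or without Mock replicate 1 or 3 or HIF-1α-KD replicate 1 or 2, and its log2 fold change was 0.26 without HIF-1α-KD replicate 1. Polrmt, the mitochondrial RNA polymerase, and Myc, a transcription factor, came next by p at 0.41 (SE 0.30) and -0.40 (SE 0.31), and the groups overlapped for both. Without single libraries Polrmt ranged from 0.04 to 0.65 and Myc from -0.75 to -0.08. The lowest unadjusted p of Myc among these fits was 0.0113 by limma. Nrf1, Gabpa and Tfam, which drive transcription of subunit genes and of mitochondrial DNA, were at -0.03, -0.10 and -0.01, and Ppargc1a, the gene of PGC-1α, had a normalized count of at most 6.70. These last 4 genes were chosen after their values were seen.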

How the data were processed

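RNA of sorted MC-38GFP tumor cells was measured in 3 Mock and 3 HIF-1α-KD libraries, grouped by the knockdown in their labels. According to the methods and the submitters' processing notes, the authors used STAR for alignment after trimming and featureCounts for read counts per gene. The notes name GRCm38 and edgeR, the methods the human assembly and DESeq2, and the gene identifiers are those of mouse. The strand setting of the counting is not given in the sources used here.

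The deposited normalized count is a signal for which the authors divided the read count of a gene by one factor per library. The authors also deposited FPKM, scaled by the deposited length and the total reads, and the GC content as a fraction. The deposited log2 ratio, p-value and false discovery rate of the authors' own comparison, and their presence mark and cluster, were not used.

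Reads came back when each value was multiplied by its library's factor, and all values up to 300 reads (100%) were then whole within 0.1 reads. Genes were kept by filterByExpr of edgeR 4.0.16 on these reads (by condition, minimum count of 10). After adding 1, normalized counts were log2-transformed and tested with limma 3.58.1 with a mean-variance trend, two-sided, and adjusted by Benjamini and Hochberg over 12014 genes, so a fold change is on the log2(count + 1) scale and understates that of low genes. For a single gene, 3 libraries against 3 cannot give an exact permutation p under 0.1. Totals of 19845852 to 30809139 reads set the precision of low genes. Alternatives were edgeR and DESeq2 1.42.0 on recovered reads (47 and 279 genes called at an adjusted p under 0.05, beside 47 by limma), other scalings, filters and pseudocounts (0.1 and 10), a block for replicate number, loess on length or GC content (span of 0.5) and leaving out each library.

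The members and the lists of other genes were chosen with earlier results of these data known. Named are members with an unadjusted p under 0.05, the extremes and the highest FPKM of each complex, catalytic, pore-forming and tissue-restricted subunits, members that did not pass the filter, and up to 4 genes of each other list by p, besides genes said to be chosen after their values were seen. Positions and transcripts came from GENCODE of GRCm38, promoters and names from RefSeq, and near-identical genes from blastn 2.17.0 (at least 95% identity over 50% of the transcript). R 4.3.3 and Python 3.11.15 were used. Protein sequences were not used here, and 1 subunit gene is counted in the summaries but not reported here by itself.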

Additional observations from a re-analysis of the deposited data

How the results depend on the processing

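Direction and side of the adjusted threshold held for 866 of 918 values of 51 single genes under the alternatives, and direction and side of the unadjusted one for 828. The 1 member lower at an adjusted p under 0.05 became 0 with scaling by total reads, with correction for transcript length and with the replicate block, where the adjusted limma p of Ndufv3 was 0.171. Leaving out single libraries gave 0 throughout. The 1 member higher at an unadjusted p under 0.05 became 2 with scaling by total reads or correction for length and 0 with correction for GC content, and 0 to 1 without single libraries. The 3 lower members became 6 with correction for GC content and 2 to 5 without single libraries. Members higher without overlap were 2, and 1 with correction for GC content, 5 with that for length and 5 with total reads. Of the other respiratory genes, 4 were higher at an unadjusted p under 0.05, 2 with the replicate block and 1 to 6 without single libraries, and 0 were lower, 1 with correction for GC content and 0 to 1 without single libraries. Over all genes, limma called 47 at an adjusted p under 0.05, DESeq2 279, the replicate block 0, and limma without single libraries 0 to 38. The causes of these differences were not tested.

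The replicate numbers did not pair the libraries: the deviations of same-numbered libraries from their group means had correlations of -0.14, -0.12 and 0.02, and no library correlated best with its own number.

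Signs near 0 turned. With scaling by total reads the log2 fold change was 0.012 for 2010107E04Rik, 0.013 for Sdha, 0.020 for Sdhc, 0.050 for Uqcr11 and 0.0087 for Uqcrc1. With correction for length it was 0.14 for 2010107E04Rik, 0.032 for Cox6a1, 0.040 for Ndufs7, 0.059 for Sdha, 0.14 for Uqcr11 and 0.022 for Uqcrc1, and with that for GC content 0.018 for 2010107E04Rik, -0.021 for Cox6b1, -0.0012 for Ndufs8 and -0.011 for Sdhb. Without single libraries it was -0.20 to 0.044 for 2010107E04Rik, -0.28 to 0.022 for Atp5g2, -0.25 to 0.11 for Cox6a1, -0.11 to 0.17 for Cox6b1, -0.27 to 0.0034 for Cox7a2, -0.0065 to 0.16 for Ndufa4, -0.30 to 0.11 for Ndufs7, -0.055 to 0.19 for Ndufs8, -0.13 to 0.010 for Sdha, -0.056 to 0.16 for Sdhb, -0.14 to 0.058 for Sdhc, -0.30 to 0.25 for Uqcr11, -0.099 to 0.0020 for Uqcrc1 and -0.12 to 0.18 for Usmg5.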
